A study of Homo sapiens with 9 samples.

Results

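The 10 genes described here encode acute-phase proteins (SERPINA3, SAA1, SAA2), complement components (C3, CFB, C1R, C1S) and proteins of mucosal and innate defence (PIGR, CD14, VNN2). They were chosen by name, from results of these same libraries that showed many of them lower in cells carrying hairpins against BBOX1. All 10 are among the 27315 gene rows of the deposited expression table, and all 10 were among the 13165 genes tested. Their changes against the control libraries are therefore given as a description with no test.

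RNA was sequenced from MDA-MB-468, an established line of triple-negative breast cancer, in a study of BBOX1 as a target in that cancer. BBOX1 is the dioxygenase that makes carnitine from gamma-butyrobetaine. The 9 libraries of polyadenylated RNA fall into 3 groups of 3, namely cells with a scrambled control hairpin, cells with BBOX1 hairpin sh1 and cells with BBOX1 hairpin sh6. All cells, controls included, were infected with lentivirus, selected with a drug and grown in medium with serum. The labels describe 1 cell line and no rescue of BBOX1, and their protocol lists target sequences for hairpins called sh1 and sh2, with none under the name sh6. The labels call the libraries triplicates and do not say whether they came from separate cultures, so the p-values reflect variation among these libraries alone and it may be technical.

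Acute-phase proteins are secreted proteins whose synthesis rises during inflammation. The liver makes most of those in plasma, but epithelia, the breast included, also make several of them. STAT3 downstream of interleukin 6, C/EBP factors and NF-kB are the classic inducers of these genes. Complement is a cascade of plasma proteases: C1r and C1s start its classical pathway, factor B drives the amplifying alternative pathway, and both converge on C3. The polymeric immunoglobulin receptor carries IgA and IgM across secretory epithelium into milk and mucus.

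BBOX1 was lower with both hairpins, which checks the labels. Its normalised counts were 2703.2, 2784.7 and 2359.8 in the control libraries, 324.2, 345.7 and 327.6 with sh1, and 606.1, 617.7 and 580.6 with sh6. The log2 difference from control was -2.76 with sh1 and -2.01 with sh6 (limma, adjusted p = 3.73e-25 and 6.15e-22), and BBOX1 with sh6 exceeded BBOX1 with sh1 by 0.75 (adjusted p = 2.73e-11). Between 15746750 and 19770833 recovered reads per library stand behind the values. Replicates within a group correlated at r = 0.995 to 0.998 across genes. All 10 epithelial and basal-like breast markers passed the filter, with summed normalised counts of 172465.5 to 188442.3 in control, 174880 to 182952.3 with sh1 and 186420.6 to 193982.2 with sh6. These sums hold opposite differences of single markers, named after their values were seen. KRT5 was 1.51-fold higher with sh1 and 1.77-fold higher with sh6. KRT19 was 1.34-fold lower with sh1, and EGFR was 1.27-fold lower with sh6.

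Upstream sequences of the genes that were lowest with both hairpins are shown so that their letters can be read beside the values that follow. RefSeq promoter entries (GRCh38.p14, from 250 bases before to 50 bases after a start) matched 6 of the 10 genes, namely SERPINA3, PIGR, CFB, C1R, CD14 and VNN2. C3, C1S, SAA1 and SAA2 were not matched. The first 3 sequences are the longest upstream stretches free of annotated exons, from PIGR (chr1:206946467-206946716, minus strand, bases -250 to -1 from the start), VNN2 (chr6:132763460-132763705, minus strand, -250 to -5) and SERPINA3 (chr14:94612141-94612296, plus strand, -250 to -95). The other two are 30-base windows of CFB (chr6:31945993-31946022, plus strand) and CD14 (chr5:140633279-140633308, minus strand), whose upstream bases overlap annotated exons. All are written 5′ to 3′ on the gene's strand. Capitals mark a match to the interferon-stimulated response element in VNN2 and to the STAT element in CFB and CD14. The CD14 window lies inside that gene (chr5:140631732-140633701), before an inner start and not before its outer one.
PIGR: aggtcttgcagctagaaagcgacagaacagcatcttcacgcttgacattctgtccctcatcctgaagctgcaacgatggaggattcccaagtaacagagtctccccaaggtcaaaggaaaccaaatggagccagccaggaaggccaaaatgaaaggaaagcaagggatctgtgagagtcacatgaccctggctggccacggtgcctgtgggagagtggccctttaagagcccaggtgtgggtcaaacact
VNN2: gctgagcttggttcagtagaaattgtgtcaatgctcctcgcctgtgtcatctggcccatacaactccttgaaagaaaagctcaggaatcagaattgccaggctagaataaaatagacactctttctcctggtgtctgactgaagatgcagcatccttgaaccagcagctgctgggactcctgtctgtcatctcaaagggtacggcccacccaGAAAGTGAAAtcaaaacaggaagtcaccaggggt
SERPINA3: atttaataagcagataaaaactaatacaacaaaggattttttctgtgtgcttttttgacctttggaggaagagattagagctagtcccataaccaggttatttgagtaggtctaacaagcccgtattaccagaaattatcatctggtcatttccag
CFB: cgcttggatgTTCCGGGAAagtgatgtggg
CD14: attgcaatatTTCCAGGAAaggaagggggc

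The STAT element TTCNNNGAA occurred in 3 of the 6 matched genes (CFB, CD14 and C1R) and in 7.66% of 35116 promoters of the same 300 bases. C1R was searched upstream of its outer start (chr12:7092446-7092695) and of a start inside the gene (chr12:7091894-7092143). Its STAT match lies in the latter stretch, so the count of genes and the share of promoters are not quite alike. CD14 was searched only around a start inside the gene, with upstream bases chr5:140633176-140633425. Its STAT and AP-1 matches therefore do not lie upstream of its outer start. The interferon-stimulated response element was found in VNN2 and CFB and in 3.57% of all promoters. The NF-kB element was found in CFB (11.3% of promoters), the AP-1 element TGANTCA in CD14 (7.71%) and the C/EBP element TTGCNNAA in C1R (10.5%). Both strands were searched, and the listed matches in CFB do not cover the same bases. None of these letters was found in the SERPINA3 and PIGR windows, which says only that they are not in those 300 bases. A match is a description of the sequence and not evidence of binding.

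Levels are given as normalised counts, recovered from the deposited variance-stabilised log2 values, and a log2 change is a group difference on that deposited scale. That scale compresses genes with few reads, so a log2 change understates the fold for them. Throughout, less RNA per cell and fewer cells expressing a gene cannot be told apart in these bulk libraries.

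SERPINA3, at chr14:94612391-94624053 (GRCh38.p14), encodes alpha-1-antichymotrypsin, a secreted inhibitor of serine proteases such as cathepsin G. Its normalised counts were 4157.0, 4475.0 and 3608.5 in control, 559.3, 595.9 and 616.5 with sh1, and 604.8, 583.6 and 583.6 with sh6. Every hairpin library was far below every control library, and the sh1 and sh6 libraries overlapped. The group means were 4080 ± 438 in control (SD, n = 3), 591 ± 28.96 with sh1 and 591 ± 12.2 with sh6, a 6.91-fold lower level with each hairpin. Among the 13165 tested genes its change ranked 6 from the lowest with sh1 and 11 with sh6. Of the short sequence words in SERPINA3 transcripts, 32.6% also occur in AL049839.2, another annotated gene, so reads may have been divided between them.

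SAA1 (chr11:18266264-18269967) and SAA2 (chr11:18238236-18248668) are neighbouring genes for serum amyloid A, an apolipoprotein of high-density lipoprotein that rises steeply in the acute phase. SAA1 stood at 1802.6, 1715.9 and 1914.0 normalised counts in control, 859.8, 941.5 and 955.5 with sh1, and 2002.2, 1960.5 and 2077.6 with sh6. The sh1 libraries were all below the control libraries, whereas the sh6 libraries were all above them. The mean was 1811 ± 99.3 in control, 919 ± 51.7 with sh1, 1.97-fold lower, and 2013 ± 59.3 with sh6, 1.11-fold higher.

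SAA2 was below control with both hairpins, at 1024.5, 1025.2 and 1050.1 normalised counts in control, 582.9, 536.7 and 565.4 with sh1, and 632.4, 628.4 and 703.1 with sh6. Its mean was 1033 ± 14.6 in control, 1.84-fold lower with sh1 (562 ± 23.3) and 1.58-fold lower with sh6 (655 ± 42.0). The sh6 libraries of SAA2 were thus on the other side of control from those of SAA1. Of the 31-base words in SAA1 transcripts, 53.2% also occur in SAA2, and the counting program shares such reads out by estimate, so the split between the pair is uncertain. SAA4, a family member made constitutively in liver, was near the lower limit of the test at 39.4 ± 7.97 normalised counts in control, 35.3 ± 1.29 with sh1 and 26.7 ± 2.79 with sh6 (limma, adjusted p = 0.576 and 0.0318). The read-through gene SAA2-SAA4 had 83.4 ± 12.8, 55.0 ± 16.3 and 54.5 ± 8.86 (limma, adjusted p = 0.00527 and 0.0046).

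C3 (chr19:6677704-6720650) encodes the central component of complement, whose cleavage marks surfaces for uptake and leads to the membrane attack complex. It had the highest normalised counts of the 10 genes, at 24753, 22712 and 25615 in control, 8685.1, 8592.5 and 8500.9 with sh1, and 17072, 16370 and 16315 with sh6. The groups separated into 3 levels, with sh6 between control and sh1. C3 was 2.83-fold lower with sh1 (8593 ± 92.1 against 24360 ± 1491) and 1.47-fold lower with sh6 (16586 ± 422).

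CFB (chr6:31946095-31952084) encodes factor B, the protease of the alternative pathway C3 convertase. Its normalised counts were 7891.6, 8104.0 and 7859.7 in control, 1973.8, 2107.1 and 2078.1 with sh1, and 2147.1, 2269.6 and 2119.0 with sh6. Both hairpin groups lay well below control and close to each other. CFB was 3.87-fold lower with sh1 and 3.65-fold lower with sh6. Its replicates were tight, since 5.24% of tested genes had a smaller pooled SD. CFB shares 69.2% of its 31-base transcript words with AL645922.1, an overlapping annotated gene, so reads may have been divided between them.

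C1R (chr12:7080219-7092445) and C1S (chr12:7060718-7071032) are neighbouring genes for the proteases of the C1 complex: C1r activates C1s, which then cleaves C4 and C2. C1R counts were 355.0, 345.1 and 331.0 in control, 194.9, 146.7 and 181.7 with sh1, and 424.3, 388.3 and 402.0 with sh6. As for SAA1, every sh1 library was below control and every sh6 library above it. The mean of 344 ± 12.1 in control was 1.97-fold lower with sh1 (174 ± 24.9) and 1.18-fold higher with sh6 (405 ± 18.2).

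C1S was the least abundant of the 10, with 28.8, 44.4 and 47.7 normalised counts in control, 9.3, 11.9 and 14.8 with sh1, and 20.8, 24.6 and 20.2 with sh6. All hairpin libraries were below control, but the sh1 libraries were also below the normalised count of 16.2 that the mean of a tested gene had to reach. C1S was 3.37-fold lower with sh1 and 1.84-fold lower with sh6. On the deposited scale this was a log2 change of -0.67 and -0.37, against -1.66 and -0.83 when log2(normalised count + 1) was used.

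PIGR (chr1:206928522-206946466) encodes the polymeric immunoglobulin receptor. It had 960.9, 1022.6 and 876.3 normalised counts in control, 66.7, 67.3 and 59.6 with sh1, and 125.0, 131.4 and 104.3 with sh6. The 3 groups did not overlap. At 64.5 ± 4.29 with sh1 and 120.2 ± 14.2 with sh6 against 953 ± 73.5 in control, it was 14.8-fold and 7.93-fold lower, with rank 2 from the lowest among all tested genes for sh1 and rank 16 for sh6.

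CD14 (chr5:140631732-140633701) encodes the co-receptor that hands lipopolysaccharide to TLR4, best known from monocytes and also made by epithelia. Its normalised counts were 1370.8, 1370.3 and 1581.3 in control, 333.1, 329.2 and 450.8 with sh1, and 221.8, 202.5 and 183.0 with sh6. CD14 was the only one of the 10 with every sh6 library below every sh1 library. It was 3.88-fold lower with sh1 and 7.12-fold lower with sh6. Its replicates were the most scattered of the 10, with a pooled SD of 0.157 on the log2 scale that exceeded the SD of 94.7% of tested genes, and replicate 3 of sh1 was the highest of its group.

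VNN2 (chr6:132743870-132763455) encodes a membrane-anchored pantetheinase, of the enzyme family that splits pantetheine into the vitamin pantothenate and cysteamine. It stood at 1411.6, 1650.1 and 1371.1 normalised counts in control, 198.4, 193.7 and 183.1 with sh1, and 235.2, 237.1 and 252.4 with sh6. The sh6 libraries were a little above the sh1 libraries and both were far below control. VNN2 was 7.71-fold lower with sh1 and 6.12-fold lower with sh6, at ranks 8 and 24 from the lowest.

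**Figure D1:**
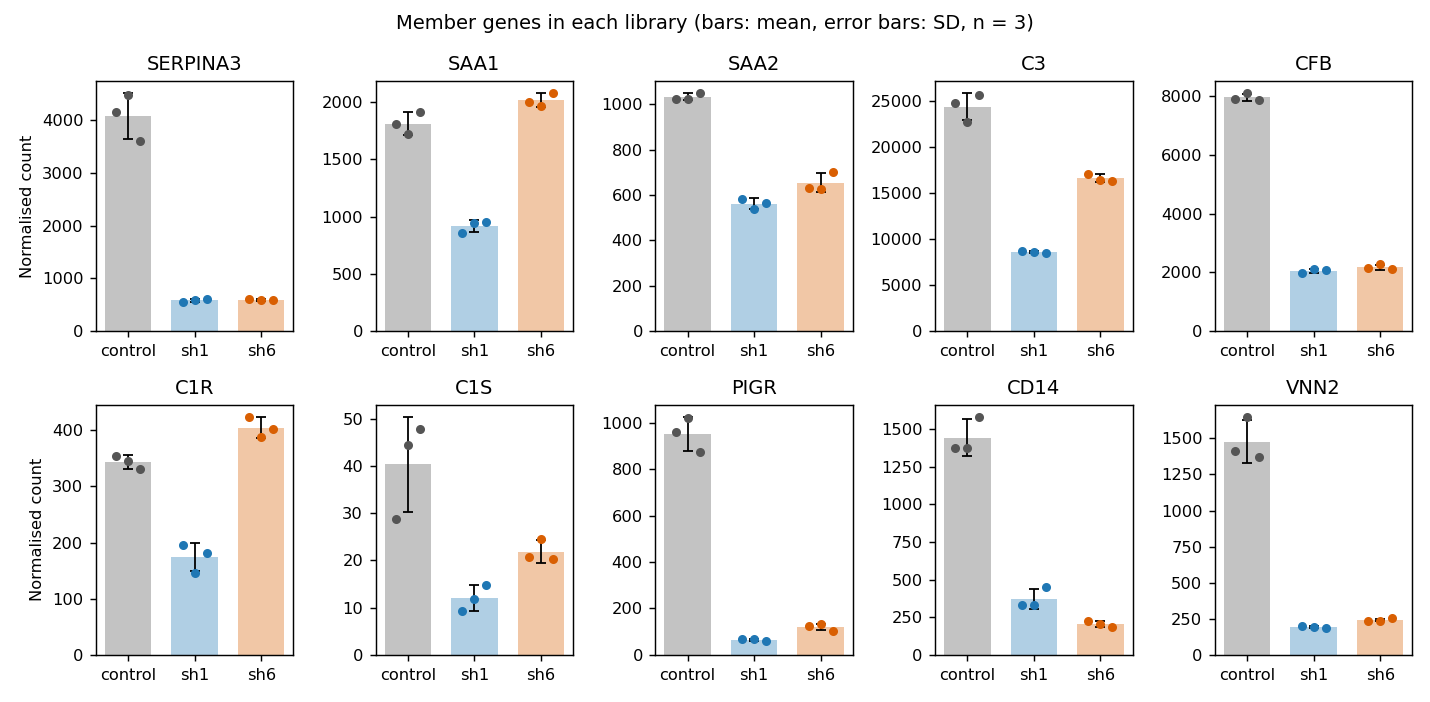
Normalised count (linear axis from 0) of each of the 10 genes in every library, with control, sh1 and sh6 side by side, points for single libraries and bars for group means. The sh1 libraries lie below control in all 10 panels, while the sh6 libraries lie above control for C1R and SAA1.

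With sh1, the libraries of 10 of 10 genes lay below all control libraries. This held for 32.4% of all tested genes in the same comparison. With sh6, 8 of the 10 lay below control (33.9% of all genes) and 2, C1R and SAA1, lay above it (34.6%). Nothing is read from these counts, since the genes were picked with these changes known. The median log2 change of the 10 was -1.65 with sh1 and -1.23 with sh6, where the medians over all 13165 genes were close to 0 and the 5th to 95th percentile ran from -0.69 to 0.60 with sh1 and from -0.85 to 0.71 with sh6. C1R, C1S, SAA1, SAA2 and C3 had smaller changes with sh6 than the other 5. Both comparisons share the control libraries, so their values are given side by side and not as independent measurements.

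**Figure D2:**
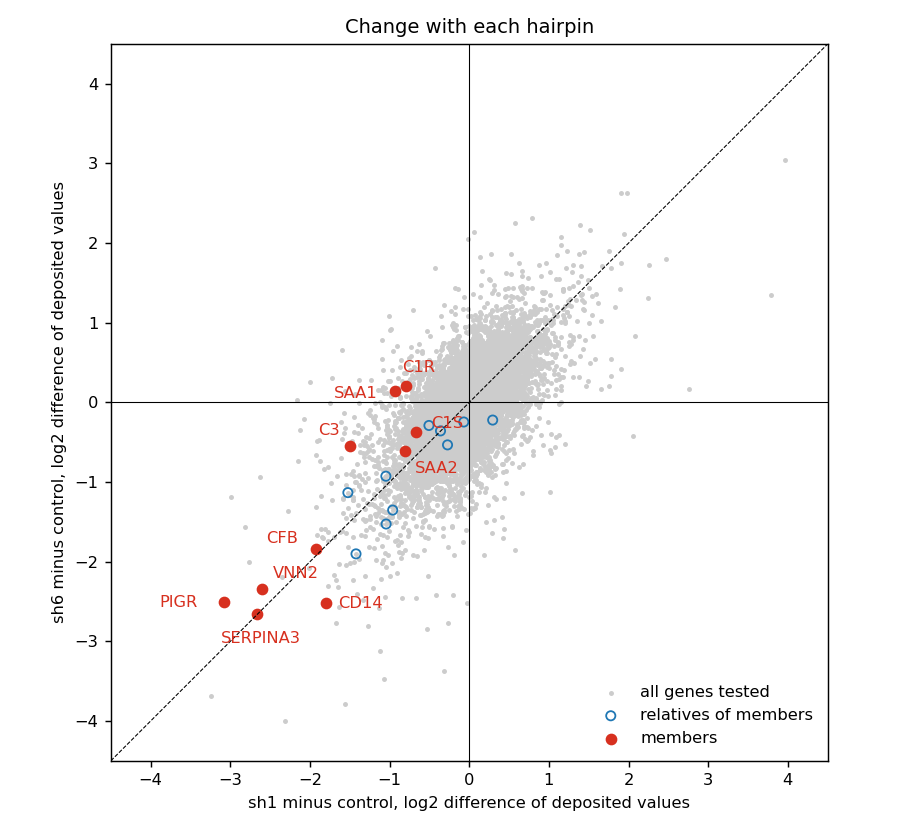
Log2 difference from control with sh1 (horizontal axis) against that with sh6 (vertical axis) for all tested genes (grey) and the 10 genes (labelled). C1R (-0.80 and 0.20) and SAA1 (-0.93 and 0.15) lie above the horizontal zero line and the other 8 lie below it.

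Compared per kilobase of the longest coding transcript, so that genes of different length can be set side by side, C3 led in control cells with 4629 ± 283 normalised counts per kilobase. CFB (2778 ± 46.4) and SAA1 (2683 ± 147) followed and did not differ beyond their spread. Next came SERPINA3 (1534 ± 165) and SAA2 (1011 ± 14.3), then CD14 (764 ± 64.5) and VNN2 (698 ± 71.2), which again did not differ beyond their spread. PIGR (223 ± 17.2), C1R (129 ± 4.54) and C1S (13.1 ± 3.27) were the lowest. With sh1 the order was led by C3 at 1633 and SAA1 at 1361 ± 76.6 per kilobase, and CFB stood at 717 ± 24.5. With sh6, C3 (3151 ± 80.2) and SAA1 (2983 ± 87.9) led, and PIGR (28.1 ± 3.32) lay below C1R (152 ± 6.84), as it did with sh1 (15.1 ± 1.00 against 65.6 ± 9.37).

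Whether the hairpins left the genes at different levels was asked by the contrast of sh6 with sh1. The difference itself does not use the control libraries. The spread behind its intervals and p-values was estimated from all 9 libraries, controls included. Of the 10 genes, 7 were higher with sh6 than with sh1 and 1 was lower (limma, Benjamini-Hochberg adjusted p under 0.05 over all tested genes). The 10 were chosen with values of these same hairpin libraries in view, so this count is not independent of that choice and nothing is read from it. Over all genes the same test called 30.8% higher and 28.9% lower, so a difference between the hairpins was common in this experiment. The median of the 10 log2 differences was 0.28, and that of all tested genes was 0.01.

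SAA1 was 1.08 higher on the log2 scale with sh6 (95% interval 0.961 to 1.2, limma adjusted p = 4.35e-16), a 2.19-fold difference in level. C1R was 2.32-fold higher with sh6 (log2 difference 1.00, interval 0.834 to 1.16, limma adjusted p = 5.55e-12). C3 was 1.93-fold higher (0.94, interval 0.835 to 1.05, limma adjusted p = 9.42e-16). For PIGR, the level with sh6 was 1.86 times that with sh1 (0.57, interval 0.397 to 0.739, limma adjusted p = 8.64e-07).

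Smaller differences in the same direction were called for VNN2, C1S and SAA2. VNN2 was 1.26-fold higher with sh6 (log2 difference 0.26, interval 0.112 to 0.414, limma adjusted p = 0.00294). C1S was 1.82-fold higher (0.29, interval 0.0724 to 0.512, limma adjusted p = 0.0204), and this call was lost without replicate 1 of sh1 (limma adjusted p = 0.088) or without replicate 2 of sh6 (0.075). SAA2 was 1.17-fold higher (0.20, interval 0.0693 to 0.33, limma adjusted p = 0.00804), a call lost without replicate 3 of sh6 (limma adjusted p = 0.063).

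CD14 went the other way and was 1.83-fold lower with sh6 than with sh1 (log2 difference -0.71, interval -0.887 to -0.533, limma adjusted p = 2.84e-08). SERPINA3 (0.00096, interval -0.134 to 0.136, limma adjusted p = 0.991) and CFB (0.083, interval -0.0227 to 0.189, limma adjusted p = 0.169) were not called. Differences of more than 0.136 for SERPINA3 and 0.189 for CFB lie outside these intervals. BBOX1 itself was higher with sh6, as given above, and whether its level bears on these differences was not tested.

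**Figure D3:**
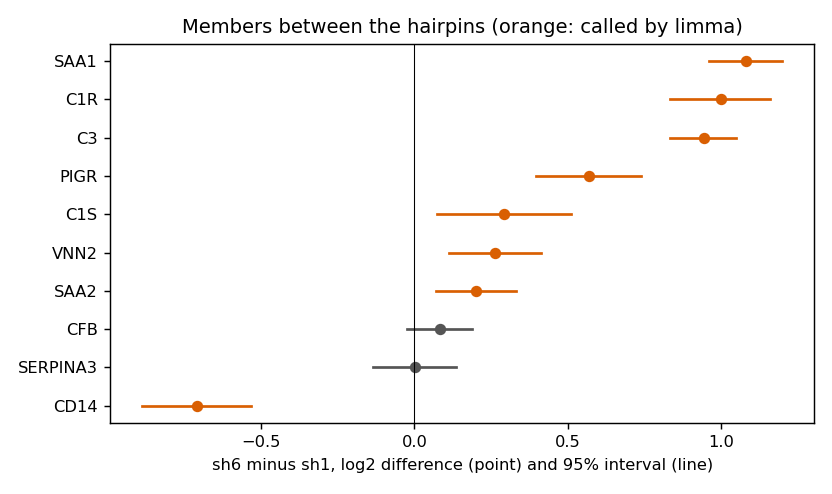
Log2 difference between sh6 and sh1 for each of the 10 genes (points) with its 95% interval (lines), orange where limma called it. The intervals of SERPINA3 and CFB cross 0, CD14 lies to the left of 0 at -0.71 and SAA1 farthest to the right at 1.08.

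Genes that work with these 10 were then examined in 11 lists drawn up by function, with the 10 left out. The lists, like the 10, were chosen with earlier results of these data known. Their counts and p-values therefore describe these libraries and are not independent support. Of 185 listed genes, 113 were expressed enough to be tested. With sh1, 71 of the 113 fell and 16 rose (30% and 29% of all tested genes), and with sh6, 70 fell and 21 rose (33.6% and 34.2% of all genes). The median log2 change of the 113 was -0.32 with sh1 and -0.35 with sh6, beside all-gene medians close to 0. In the same direction with both hairpins, 57 fell and 10 rose (19.4% and 18.9% of all tested genes). The control libraries enter both comparisons. The counts of each list below are to be read beside the same shares of all tested genes.

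All 4 tested genes of the 15 in the complement initiation and lectin pathway list fell with each hairpin (median log2 change -1 with sh1 and -1.44 with sh6). C2, the protease of the classical C3 convertase and a neighbour of CFB, fell from 164.8 ± 2.35 normalised counts to 59.9 ± 4.69 with sh1 and 35.4 ± 6.05 with sh6 (limma, adjusted p = 2.04e-10 and 5.45e-14). C4B, a gene for the fourth component, fell 5.04-fold and 11.97-fold (limma, adjusted p = 1.38e-12 and 8.22e-16), and C4A fell 3.77-fold and 9.75-fold (limma, adjusted p = 2.4e-10 and 2.56e-14). The near-identical copies C4A and C4B share reads, so the division between them is uncertain. C1RL, a C1r-like protease, fell 1.24-fold and 1.53-fold (limma, adjusted p = 0.00357 and 5.6e-07). These 4 genes were lower with sh6 than with sh1, each called by the same test. C1R, which starts the classical pathway, was instead 1.18-fold above control with sh6. Of the short sequence words in C1R transcripts, 21.9% also occur in C1RL, so the division of reads between C1R and C1RL is uncertain. The other 11 genes of that list, among them those of C1q, mannose-binding lectin and the ficolins, were too low to test.

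Of the alternative and terminal pathway list, 2 of 9 genes could be tested and neither changed with both hairpins. C5, the precursor of the terminal pathway, had 61.4 ± 20.0 normalised counts in control, 85.2 ± 14.5 with sh1 and 45.1 ± 3.84 with sh6 (limma, adjusted p = 0.0224 and 0.0745). CFD, the protease that activates factor B, was named after its values were seen and had 29.3 ± 8.99, 16.8 ± 5.05 and 38.5 ± 14.2 (limma, adjusted p = 0.0367 and 0.227).

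Several inhibitors of complement also fell. Of 8 tested regulators and receptors, 6 fell and 1 rose with sh1, and 7 fell and 1 rose with sh6. CFI, the protease that inactivates C3b, fell 3.39-fold and 2.74-fold (limma, adjusted p = 2.5e-15 and 1.02e-13). SERPING1, the inhibitor of C1r and C1s, fell from 255.0 ± 20.0 normalised counts to 83.2 ± 13.2 and 112.4 ± 9.68 (limma, adjusted p = 1.73e-12 and 5.53e-10). CLU, a secreted chaperone that also holds back the membrane attack complex, fell 2.12-fold and 1.53-fold (limma, adjusted p = 6.88e-16 and 1.73e-10). The gene that rose was CR2, a complement receptor of B cells, present at low level (33.9 ± 2.90, 47.6 ± 5.23 and 69.0 ± 3.02) and named after its values were seen.

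Among other acute-phase proteins, 7 of 9 tested genes fell with each hairpin and none rose (median log2 change -1.01 and -0.44). CP, the copper-carrying ferroxidase ceruloplasmin, fell from 16226 ± 2096 normalised counts to 2234 ± 117 with sh1 and 5434 ± 55.6 with sh6 (limma, adjusted p = 1.84e-25 and 2.63e-19). TF, the iron carrier transferrin, whose plasma level is known to drop in the acute phase, fell 11.5-fold and 2.42-fold (limma, adjusted p = 1.57e-24 and 1.36e-14). A2M, a broad protease inhibitor, fell 1.71-fold and 3.81-fold (limma, adjusted p = 7e-09 and 1.8e-17), and LRG1, a secreted leucine-rich glycoprotein, fell 2.35-fold and 2.13-fold (limma, adjusted p = 5.17e-12 and 4.96e-11). SERPINA1, alpha-1-antitrypsin and a relative of SERPINA3, fell from 32.0 ± 3.83 to 12.3 ± 2.09 and 19.5 ± 3.64 (limma, adjusted p = 1e-04 and 0.0142). The list is mixed in how its proteins behave in inflammation, so its count is not a direction of the acute-phase response.

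Mucosal secretory genes fell with sh1 in all 10 tested cases (median log2 change -1.40). With sh6, 7 fell and 3 rose (median -1.36). SLPI, a secreted inhibitor of leucocyte elastase, fell from 15643 ± 537 normalised counts to 4130 ± 261 and 4904 ± 159 (limma, adjusted p = 1.85e-23 and 4.96e-22). MUC1, a membrane mucin, fell 2.52-fold with sh1 and 8.35-fold with sh6 (limma, adjusted p = 9.78e-18 and 1.56e-26), and the membrane mucin MUC20 fell 4.93-fold and 4.86-fold (limma, adjusted p = 4.63e-17 and 3.64e-17). CXCL17, a mucosal chemokine, fell from 128.6 ± 31.4 normalised counts to 4.05 ± 1.06 and 3.27 ± 1.91, close to the floor of the table (limma, adjusted p = 1.37e-15 and 3.73e-16). Both hairpin means of CXCL17 lay below the normalised count that the mean of a tested gene had to reach. CXCL17 thus passed the filter only through its high control libraries.

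Of the receptors that act with CD14, TLR4 and its partner LY96, named after their values were seen, were too low to test, with at most 2.0 normalised counts in any library. In the list of Toll-like receptors and adaptors, 7 of 13 tested genes fell and 3 rose with sh1, and 9 fell and 1 rose with sh6. TLR5, the flagellin receptor, fell 3.13-fold and 3.77-fold (limma, adjusted p = 9.38e-14 and 2.3e-15), and TLR2, the lipopeptide receptor that CD14 also serves, fell 2.35-fold and 1.48-fold (limma, adjusted p = 7.88e-09 and 0.000348). TLR3, a receptor for double-stranded RNA, fell 1.84-fold and 1.32-fold (limma, adjusted p = 2.2e-11 and 2.62e-05). IRAK3, an inhibitor of this signalling, fell 1.79-fold and 1.31-fold (limma, adjusted p = 5.04e-10 and 0.000105).

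Both other pantetheinase genes fell. VNN3 fell from 271.7 ± 23.8 normalised counts to 60.2 ± 8.64 and 93.9 ± 3.50 (limma, adjusted p = 2.6e-15 and 1.83e-12), and VNN1 from 343.1 ± 49.0 to 135.7 ± 1.22 and 153.1 ± 22.5 (limma, adjusted p = 3.56e-11 and 3.25e-10). VNN2 shares 0.409% of its 31-base words with VNN3. Among the genes of coenzyme A synthesis, PANK3, a pantothenate kinase, fell 1.53-fold and 1.52-fold (limma, adjusted p = 6.45e-11 and 5.84e-11), and PPCS, the next enzyme, 1.13-fold and 1.34-fold (limma, adjusted p = 0.0221 and 2.1e-06). Over the 9 genes of the list, all tested, 4 fell and 1 rose with each hairpin. Of all tested genes, 30% fell and 29% rose with sh1, and 33.6% fell and 34.2% rose with sh6.

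Genes of the signals known to induce acute-phase proteins were mixed. In the interleukin 6 and STAT3 list, 10 of 17 tested genes fell and 3 rose with sh1, and 13 fell and 2 rose with sh6. CEBPD, a C/EBP factor induced in the acute phase, fell 3.16-fold and 2.47-fold (limma, adjusted p = 3.09e-15 and 3.05e-13), JAK2 fell 1.67-fold and 2.59-fold (limma, adjusted p = 7.23e-07 and 3.25e-12) and JAK1, a further kinase of these receptors, 1.47-fold and 2.13-fold (limma, adjusted p = 3.23e-10 and 2.64e-17). LIF, a cytokine of the interleukin 6 family, rose from 305 ± 14.9 normalised counts to 524.6 ± 30.5 and 723.9 ± 5.79 (limma, adjusted p = 5.49e-10 and 5.18e-15).

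In the interleukin 1, tumour necrosis factor and NF-kB list, 12 of 24 tested genes fell and 6 rose with sh1, while 7 fell and 11 rose with sh6. The shares over all tested genes were 30% and 29% with sh1, and 33.6% and 34.2% with sh6. IL1R1, the signalling receptor of interleukin 1, fell 2.31-fold and 8.67-fold (limma, adjusted p = 1.43e-12 and 9.84e-22), and its partner chain IL1RAP fell 1.84-fold and 2.04-fold (limma, adjusted p = 9.34e-12 and 1.77e-13). IL1RN, the secreted receptor antagonist, fell from 39.9 ± 6.76 normalised counts to 18.2 ± 1.02 and 4.71 ± 1.29 (limma, adjusted p = 0.000283 and 1.12e-09). TNF rose 1.61-fold and 3.12-fold (limma, adjusted p = 0.00107 and 1.21e-10), from 46.4 ± 11.6 normalised counts in control.

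Interferon gamma is a further inducer of complement genes. Of 11 tested genes of its response list, 5 fell with sh1 and 9 with sh6, and none rose with either. CD74, the invariant chain of class II antigen presentation, fell 2.99-fold and 3.92-fold (limma, adjusted p = 5.14e-11 and 3.55e-13), and GBP2, an interferon-induced GTPase, 2.41-fold and 3.20-fold (limma, adjusted p = 7.91e-13 and 9.09e-16). CXCL10, a chemokine for T cells, fell from 43.2 ± 9.47 normalised counts to 19.1 ± 3.87 and 8.14 ± 3.34 (limma, adjusted p = 0.000276 and 4e-08). IRF9, a subunit of the interferon-activated ISGF3 complex, fell 1.35-fold and 2.23-fold (limma, adjusted p = 0.000283 and 1.64e-11).

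Genes of luminal progenitor cells, the breast lineage that gives rise to secretory cells, were listed as well, and all 6 were tested. With sh1, 5 fell and 1 rose, and with sh6, 3 fell and 2 rose. ELF5, the transcription factor of milk-secreting cells, fell 2.50-fold and 6.71-fold (limma, adjusted p = 5.86e-07 and 3.96e-12), and the epithelial factor ELF3 fell 1.74-fold and 1.45-fold (limma, adjusted p = 9.37e-14 and 3.97e-10). The ELF5 mean with sh6 (13.6 ± 4.44 normalised counts) was below the filter count of 16.2. EHF, a further factor of that family, fell 1.22-fold and 1.09-fold (limma, adjusted p = 1.57e-05 and 0.0272). ALDH1A3, the retinoid-making dehydrogenase, rose 1.21-fold and 2.97-fold (limma, adjusted p = 0.000539 and 1.01e-19).

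**Figure D4:**
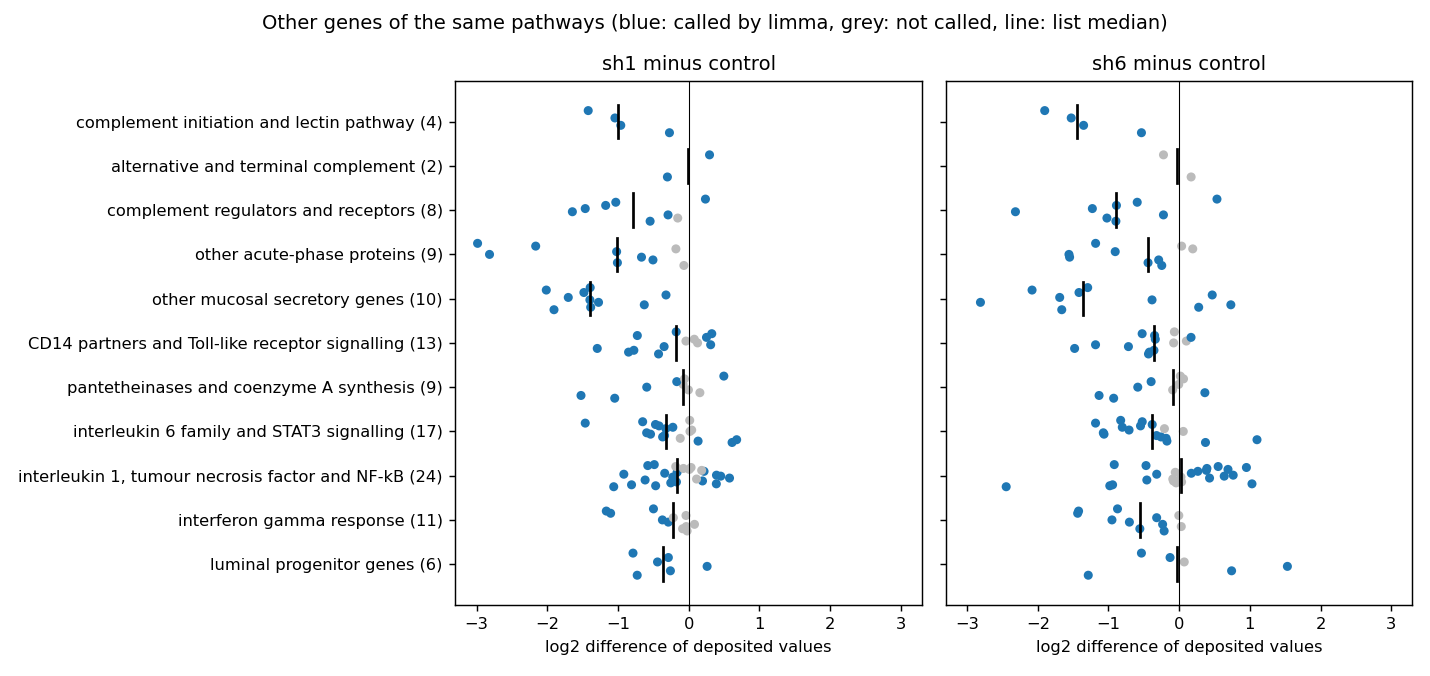
Log2 difference from control of every tested gene of the 11 lists, with sh1 on the left and sh6 on the right, 1 point per gene, blue where limma called it, and a line at each list's median. The 4 complement initiation genes lie left of 0 in both panels, and the interleukin 1, tumour necrosis factor and NF-kB list spreads to both sides.

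For each of the 10, the genes with the nearest pair of changes (log2 change with sh1 and with sh6, Euclidean distance) were sought among 12239 tested protein-coding genes, with the 10 themselves and BBOX1 left out of the search. SERPINA3, PIGR and VNN2 had none of the searched genes within 0.2 of them, and the nearest searched gene to each was RARRES3, a retinoid-induced enzyme, at distances of 0.56, 0.79 and 0.30. For SERPINA3, CXCL17 (0.87) and TNFSF10 (0.95) came next in that search. CP and CXCL17 were the next searched genes for both PIGR (0.98 and 1.14) and VNN2 (0.81 and 0.65).

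CD14 had 1 gene within 0.2, NEURL3 (0.18), followed by TNFSF10 (0.21), which encodes the death ligand TRAIL. The nearest to CFB were PDCD4 (0.16), the secreted phospholipase PLA2G2A (0.16) and SLPI (0.18). Near C3 lay SPCS3 (0.072), a subunit of the signal peptidase of the endoplasmic reticulum, TXNDC5 (0.13), a disulphide isomerase there, and the amino acid transporter SLC43A2 (0.13).

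The genes with small log2 changes on the deposited scale had many genes as close to them, 34 for C1R, 288 for C1S, 24 for SAA1 and 126 for SAA2. Near SAA1 lay CEBPA (0.051), a C/EBP transcription factor, and UHMK1 (0.086). For C1R these were EPS8 (0.028), TMEM150A (0.039) and GALNT7 (0.077), for C1S RBM43 (0.017), RPS18 (0.019) and CTSA (0.025), and for SAA2 SGK3 (0.012), TCAIM (0.015) and PERP (0.032). Each distance rests on the same 9 libraries and is a description. Distances use the deposited scale, which compresses genes with few reads, here C1S, CXCL17 and, in the hairpin groups, PIGR. Genes near each other on it can therefore differ in fold.

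The authors' deposited table also gives a log2 fold change per gene, for a comparison not stated in the sources used here, and it is negative for all 10. In the authors' deposited table the lowest are PIGR (-3.37, adjusted p = 1.83e-38), SERPINA3 (-2.79, adjusted p = 9.34e-221), VNN2 (-2.77, adjusted p = 1.12e-100) and CD14 (-2.33, adjusted p = 5.14e-17). The authors' deposited table gives CFB as -1.91 (adjusted p = 8.21e-238), C1S as -1.25 (adjusted p = 0.00138), C3 as -0.952 (adjusted p = 0.00181) and SAA2 as -0.765 (adjusted p = 1.44e-13). C1R (-0.247, adjusted p = 0.624) and SAA1 (-0.305, adjusted p = 0.492), which lay on opposite sides of control with sh1 and sh6, have the smallest changes in the authors' deposited table.

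Several of the 10 are also made by liver cells or leucocytes, so markers of those were summed. Of 10 hepatocyte markers 1 was tested, the fibrinogen gene FGB, and APOC3, TTR, HP and CRP were at the floor in every library. The hepatocyte sum was 167.1 to 195.0 normalised counts in control, 50.8 to 67.1 with sh1 and 90.7 to 126.9 with sh6, most of it FGB (161 ± 17.9 in control), while ALB had at most 8.2. Of 13 leucocyte markers 2 were tested, CD68 and CSF1R, and 6 were at the floor in every library, among them CD3D, MS4A1, CD163, FCGR3A and TYROBP. The leucocyte sum ran from 270.4 to 328.7 in control, from 286.6 to 326.6 with sh1 and from 183.2 to 201.3 with sh6, and PTPRC, the defining CD45 gene, averaged 3.53, 3.39 and 0.319. The similar sums of control and sh1 hold opposite differences: CD68 was at 211.1 ± 15.9 in control, 77.6 ± 11.6 with sh1 and 133.8 ± 3.32 with sh6, and CSF1R at 86.6 ± 14.7, 212.1 ± 23.5 and 44.8 ± 6.32.

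Of 8 fibroblast markers 2 were tested, with sums of 344 to 486.1 in control, 299.6 to 364.3 for sh1 and 362.7 to 450 for sh6. Of 6 endothelial markers 2 were tested, with sums of 248.2 to 284.9, 105.5 to 153.6 and 94.9 to 137.4. KDR made up most of the endothelial sum (226.5 ± 19.2 in control). The hepatocyte and endothelial sums and CD68 were lower with both hairpins, the leucocyte sum was lower with sh6 and CSF1R was higher with sh1, and their part in the changes of the 10 genes was not tested.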

How the data were processed

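Per the submitters' processing notes, the authors used cutadapt, STAR, Salmon and DESeq2, and the genome build was hg19; the role of each tool, the strand setting and the annotation are not given in the sources used here. Reads were paired-end and 100 bases long, per the labels. The deposited expression values are variance-stabilised log2 values of 27315 genes, made by the authors, named as batch-corrected and with a floor of 5.02. The same deposited table holds the authors' log2 fold changes and adjusted p-values, for a comparison it does not state. Each of the 9 columns of expression values was matched to a sample by its title.

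Normalised counts were recovered by inverting the variance-stabilising transform in closed form. With the recovered scale, 71.66% to 80.08% of low values were whole reads within 0.05. Because part of the values did not come out whole, tests stayed on the deposited log2 values. In the same model of 3 groups, limma 3.58.1 (R 4.3.3, lmFit and eBayes with a mean trend) was fitted to 13165 genes whose mean lay at least 1 above the floor, a normalised count of 16.2. Tests were two-sided with Benjamini-Hochberg adjustment over all 13165 genes, called at 0.05. The fit was tested on simulated data.

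The 10 genes and the pathway lists were chosen with earlier results of these data known. Named besides the 10 and BBOX1 were up to 4 genes of each list that passed the test in one direction for sh1 and sh6 alike, by mean absolute change, the 3 nearest genes to each of the 10, and fixed relatives. Besides markers of other cell types, list genes outside that rule are said to be named after their values were seen, and a few items under it are not reported here. Transcript lengths and shared words came from GENCODE 29, and positions and promoters from RefSeq (GRCh38.p14), not from the authors' build. Python 3.11.15 was used for all else. Alternatives covered filters, scaling, scale, prior, sample weights, threshold, a replicate block and leaving out each library. The names of 27 genes had been turned into dates and were not used.

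Libraries with the same replicate number were compared across groups. Their deviations from the group mean correlated at r = -0.128 to 0.176 in 9 pairs, so the numbers were not taken to pair the samples. The batches and the correction behind the table's name are not given in the sources used here, and an effect shared by a number may already have been removed.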

Additional observations from a re-analysis of the deposited data

Results flagged for a closer look

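The sh1 and sh6 groups differed from each other for 8 of the 10 genes by a test of the difference itself, the limma contrast of sh6 with sh1. Over all tested genes that contrast called 30.8% higher and 28.9% lower, so such a difference is not particular to these genes. The 10 were also chosen with values of these libraries in view. The log2 difference was 1.08 for SAA1, 0.999 for C1R, 0.943 for C3, 0.568 for PIGR, 0.292 for C1S, 0.263 for VNN2 and 0.2 for SAA2, all higher with sh6. It was -0.71 for CD14, the co-receptor for lipopolysaccharide, which was lower with sh6. For SAA1 and C1R the hairpins also stood on opposite sides of control in every library. Groups of 3 libraries are too small for the test of a single outlying sample that was considered, so none was made.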

How the results depend on the processing

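Across 20 alternatives, 6 to 8 of the 10 genes were called higher with sh6 than with sh1, against 7 in the reported fit, and 1 was called lower in each. The highest count came with sample weights, which also called CFB (adjusted p = 0.027). C1S was not called at a threshold of 0.01 and was not tested with a mean at least 2 above the floor. The uncalled difference of SERPINA3 was -0.00729 with sample weights and ran from -0.034 to 0.0295 when single libraries were left out. Of 378 changes against control recomputed over 19 settings, 352 moved by less than 1 SD of the replicates, 26 moved by more and 0 changed sign. For the pathway lists, 49 to 63 genes were called lower with both hairpins and 7 to 12 higher, against 57 and 10. The shift of the all-gene median under another scaling was at most 0.0309. With a replicate block, 7 of the 10 genes were called higher and 1 lower with sh6, and 58 list genes were called lower and 10 higher with both, and no call between the hairpins changed for the 10. Each library correlated best with its own number in another group in 9 of 18 cases, which does not settle whether the numbers pair the samples. Low depth limits C1S, CXCL17 and the untested genes of the lists.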

Other observations

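Some genes of the lists changed with the hairpins in different ways. They lie outside the rule for named genes and were chosen after their values were seen. LCN2, the iron-scavenging acute-phase protein lipocalin 2, had 11978 ± 390 normalised counts in control (SD, n = 3), 2623 ± 153 with sh1 and 12292 ± 960 with sh6. It fell with sh1 (log2 change -2.17, limma adjusted p = 3.77e-24) and was not called with sh6 (0.03, limma adjusted p = 0.606), and the difference between the hairpins was 2.20 (limma adjusted p = 6.11e-24). The 3 mucosal genes that fell with sh1 and rose with sh6 were WFDC2, BPIFB1 and PIP. WFDC2, a secreted protein of the same domain family as SLPI, had 193.7 ± 33.9 normalised counts in control, 42.7 ± 1.75 with sh1 and 245.1 ± 22.6 with sh6. BPIFB1 and PIP were low, at 17.9 ± 0.555 and 32.2 ± 8.55 in control, and differed between the hairpins by 1.36 and 0.79 on the log2 scale (limma adjusted p = 5.55e-12 and 1.39e-07).

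Chemokines of the NF-kB list moved with sh6. CXCL8, which attracts neutrophils, had 1011 ± 52.0 normalised counts in control, 1038 ± 97.4 with sh1 and 2015 ± 113 with sh6, a log2 difference between the hairpins of 0.92 (limma adjusted p = 1.95e-13). CXCL1 had 207 ± 10.6, 209 ± 7.31 and 371 ± 26.4, and the difference was 0.68 (limma adjusted p = 7.84e-09). STAT3 went the other way, at 4790 ± 147 normalised counts in control, 4932 ± 131 with sh1 and 2905 ± 64.9 with sh6 (difference -0.75, limma adjusted p = 8.32e-14). MYD88, the adaptor of most Toll-like receptors, had 858 ± 103, 1075 ± 29.7 and 342 ± 16.4 (difference -1.49, limma adjusted p = 1.54e-17).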
